A study of Mus musculus with 7 samples.

Results

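This report covers the GATA factors and the transcription factors that work with them in the erythroid and megakaryocyte branches, given as 10 listed genes: *Gata1*, *Gata2*, *Klf1*, *Zfpm1*, *Tal1*, *Lmo2*, *Nfe2*, *Gfi1b*, *Fli1* and *Lyl1*. All 10 were among the 25033 gene symbols counted, and all 10 passed the filter on low counts that left 11265 genes. Their RNA was read in lin- bone marrow, from which cells with markers of mature blood lineages had been depleted. The marrow came from 3 *HRP-2* wild type (Hrp2+/+) and 4 *HRP-2* knockout (Hrp2-/-) mice. The knockout was systemic, from the tm1b (KOMP)Wtsi allele of *Hdgfrp2* on C57BL/6N, and the mice were 6 to 8 weeks old, so the knockout animals were those alive at that age. Red cells of the femur and tibia marrow had been lysed, and each library held the mixed lin- cells of 1 mouse.

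In the erythroid branch, GATA2 acts early in stem and progenitor cells, and GATA1 takes over its binding sites as cells mature, with FOG1 (*Zfpm1*) as its cofactor. GATA1 works in complexes with SCL (*Tal1*), which binds E-boxes, and LMO2, which bridges the DNA-binding proteins without binding DNA itself. KLF1 then drives the red cell genes, while FLI1 acts on the platelet genes of the megakaryocyte. GFI1B is a repressor needed in both branches, NF-E2 p45 (*Nfe2*) acts late in both, and LYL1 is the paralog of SCL. *Gata2* and *Gata1* are also used outside these branches, in mast cells, basophils and eosinophils.

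GATA factors bind GATA letters, of which the runs AGATAA and TGATAA were searched. The promoter windows shown are those of *Klf1*, *Tal1* and *Gfi1b*, which held such a run, and that of *Gata1*, which held neither. Other runs with GATA were not searched, and the *Gata1* window holds one (aggatagac). RefSeq promoter windows of 300 bases on GRCm38.p6, from 250 bases before a start, were at hand for 7 of the 10 genes, as 9 windows. The letters AGATAA or TGATAA, and the CACCC-type letters CCNCNCCC to which KLF proteins bind, were searched on both strands and are in capitals, with adjoining or overlapping matches forming 1 run. All windows read 5′ to 3′ on the strand of the gene.
*Gata1*, chrX:7967861-7968160, minus strand: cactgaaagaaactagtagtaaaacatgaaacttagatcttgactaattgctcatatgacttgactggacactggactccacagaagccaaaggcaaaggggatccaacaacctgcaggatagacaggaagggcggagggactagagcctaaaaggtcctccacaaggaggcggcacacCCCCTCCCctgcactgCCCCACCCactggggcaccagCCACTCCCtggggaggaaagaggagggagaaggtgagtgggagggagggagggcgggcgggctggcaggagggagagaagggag
*Klf1*, chr8:84901732-84902031, plus strand: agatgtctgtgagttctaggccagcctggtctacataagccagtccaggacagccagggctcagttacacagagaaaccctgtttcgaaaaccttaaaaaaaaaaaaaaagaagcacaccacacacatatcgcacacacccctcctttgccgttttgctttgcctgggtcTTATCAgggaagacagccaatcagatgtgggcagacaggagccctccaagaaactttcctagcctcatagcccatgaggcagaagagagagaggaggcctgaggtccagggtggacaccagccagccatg
*Tal1*, chr4:115056176-115056475, plus strand: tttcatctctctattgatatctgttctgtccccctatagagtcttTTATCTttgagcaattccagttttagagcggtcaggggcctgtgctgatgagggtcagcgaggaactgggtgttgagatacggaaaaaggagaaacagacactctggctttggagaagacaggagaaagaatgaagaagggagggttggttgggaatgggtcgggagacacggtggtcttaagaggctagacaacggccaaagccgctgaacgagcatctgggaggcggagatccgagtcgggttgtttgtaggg
*Gfi1b*, chr2:28621933-28622232, minus strand: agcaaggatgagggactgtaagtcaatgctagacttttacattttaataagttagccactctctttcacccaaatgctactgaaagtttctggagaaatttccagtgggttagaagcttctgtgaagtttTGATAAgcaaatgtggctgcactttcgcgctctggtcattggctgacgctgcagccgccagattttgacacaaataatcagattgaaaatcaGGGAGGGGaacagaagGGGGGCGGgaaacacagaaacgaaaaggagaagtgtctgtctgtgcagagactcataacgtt
In the *Klf1* window TGATAA lay on the other strand from −80 to −75, counted from the start at 0, and in the *Gfi1b* window it lay from −120 to −115. In the first of the *Tal1* windows AGATAA lay on the other strand from −205 to −200. AGATAA was in 11.2% and TGATAA in 9.05% of the 32851 windows of all genes, and CCNCNCCC was in 49.5% of them, so the last is a common run of letters. These are matches of letters only, and binding was not measured.

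The libraries held between 3525665 and 5605158 reads on genes, and 3 reads, taken as the floor, stood for 0.535 to 0.851 CPM before TMM factors were applied. CPM elsewhere are counts scaled to a common library size with edgeR's TMM factors. The floor covers counting error only. *Hdgfl2*, the gene of HRP-2, had 156 to 228 reads in the wild type and 2 to 13 reads in the knockout libraries. Knockout replicate 3 stood apart in its sex-linked genes, with *Xist* at 0.559 CPM and 4 Y-linked genes at 185.5 CPM in sum, against at most 0.775 CPM for that sum in the other 6 mice, so values without it are given below. *Rn45s*, a ribosomal RNA precursor, ranged from 4.94% to 20.6% of gene reads, with the highest shares in wild type replicate 2 (20.6%) and knockout replicate 4 (18.6%). Stem and progenitor markers such as *Kit* and *Cd34* were read in every library, with a list of 13 such genes at 573.6 to 788.7 CPM in sum. Of that list *Fgd5* was at 0 CPM in knockout replicates 1, 2 and 4. Of 45 erythroid genes 44 were matched, and *Hba-a1*, *Hba-a2*, *Hbb-bs* and *Hbb-bt* were listed at 0 reads in every library, so the globin genes gave no measure of erythroid cells here.

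No factor of the 10 differed between the genotypes past the threshold. By edgeR's quasi-likelihood test on the counts, 0 of the 10 had an adjusted p under 0.25, and DESeq2 and limma-voom also gave 0, each with 1 of 10 at an unadjusted p under 0.05. Of all genes tested, 0.0178% were called at that threshold, 0.00888% higher and 0.00888% lower in knockout cells. Each log2 fold change is knockout over wild type. It was below 0 for 9 of the 10 factors, against 50.2% of all genes, with a median of −0.24 against −0.0014 over all genes. It ran from −0.52 for *Gata1* to 0.73 for *Klf1*. Only *Lmo2* had an unadjusted p under 0.05 in edgeR's test, where 3.63% of all genes did (2.07% lower, 1.56% higher), and *Lmo2* was also the member whose genotypes did not overlap, where 5.16% of all genes did not. The count below 0 rested in part on wild type replicate 2, since without it 6 of 10 were below 0. The median was −0.11 without that mouse, −0.10 without knockout replicate 1 and −0.13 without knockout replicate 2. The number of mice limits these intervals, and in bulk RNA fewer cells of a type and less RNA per cell cannot be told apart.

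**Figure D1:**
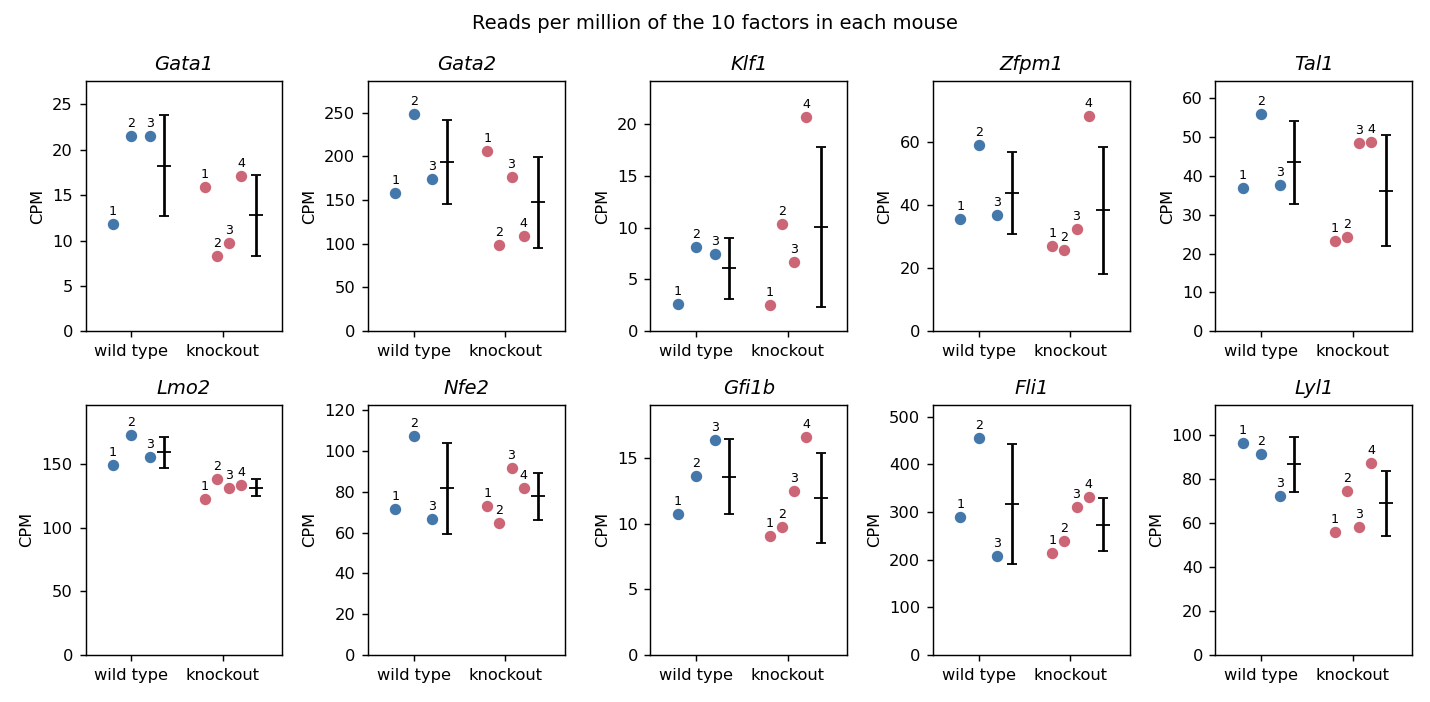
CPM of the 10 factors (vertical axes, from 0) in wild type (blue) and knockout (red) mice, with each point labelled by its replicate number and black bars for the mean ± SD. Of the 10 panels, that of *Lmo2* is the one in which the genotypes are separate, and *Klf1* runs from 2.52 to 20.6 CPM within the knockout mice.

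*Gata1*, the central factor of erythroid and megakaryocyte maturation, lies on chromosome X of GRCm38 from 7959260 to 7978071. Its level was 11.8, 21.5 and 21.5 CPM in wild type replicates 1 to 3 and 15.9, 8.29, 9.69 and 17.1 CPM in knockout replicates 1 to 4. The genotypes overlapped because wild type replicate 1 was low, and knockout replicates 2 and 3 lay below every wild type mouse. Wild type mice averaged 18.3 ± 5.58 CPM (SD, n = 3) and knockout mice 12.8 ± 4.41 CPM (SD, n = 4). This is a log2 fold change of −0.52 (95% interval −1.16 to 0.13, standard error 0.31; adjusted p = 0.999 from edgeR's test). These values rest on 40 to 82 reads per library. Leaving out 1 mouse gave a log2 fold change of *Gata1* from −0.75 without wild type replicate 1 to −0.36 without knockout replicate 2. It was −0.40 without knockout replicate 3, whose sex-linked genes stood apart.

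*Gata2*, the factor of stem and early progenitor cells, lies on chromosome 6 of GRCm38 from 88193891 to 88207032. It stood at 158.4, 247.7 and 174.1 CPM in wild type replicates 1 to 3 and at 206.3, 99.1, 176.3 and 108.6 CPM in knockout replicates 1 to 4. Knockout replicates 2 and 4 were below every wild type mouse, and the other knockout mice lay among the wild type values. The fitted log2 fold change was −0.39 (95% interval −0.97 to 0.20, standard error 0.26; adjusted p = 0.999 from edgeR's test), and −0.17 without wild type replicate 2 to −0.59 without knockout replicate 1. *Cpa3*, a mast cell and basophil protease, was at 226.6 CPM in knockout replicate 2 and 248.0 CPM in knockout replicate 4, against 297.6 to 394.1 CPM in the other 5 mice. *Mcpt8*, a basophil protease, was at 472.8 CPM and 538.6 CPM in these mice, against 679.0 to 885.7 CPM in the others. *Cpa3* and *Mcpt8* were picked after their values were seen. Over the list of 16 eosinophil, basophil and mast cell genes tested, the median deviation from each gene's mean over the 7 mice was −0.40 on the log2 scale in knockout replicate 2 and −0.19 in knockout replicate 4, the lowest values of the 7 mice. Within that list *Siglecf* (14.7 CPM) and *Slc18a2* (36.5 CPM) were highest in replicate 2 among the knockout mice. These were also picked after their values were seen. The list median did not follow *Gata2* in every mouse. It was 0.013 in knockout replicate 1 and 0.095 in wild type replicate 2, where *Gata2* was highest, and 0.24 in wild type replicate 1. The part of eosinophils, basophils and mast cells in the *Gata2* level was not tested.

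*Zfpm1*, which encodes FOG1, the cofactor of GATA1, lies on chromosome 8 of GRCm38 from 122282141 to 122337251, within a read-through gene on the same strand. Its level was 35.7, 58.9 and 36.8 CPM in wild type replicates 1 to 3 and 27.1, 25.7, 32.4 and 68.3 CPM in knockout replicates 1 to 4. Of the knockout mice 3 lay below every wild type mouse, and knockout replicate 4 lay above them all. For *Zfpm1* the log2 fold change was −0.20 (95% interval −0.94 to 0.55, standard error 0.34; adjusted p = 0.999 from edgeR's test). It was 0.075 without wild type replicate 2, −0.045 without knockout replicate 2 and −0.058 without knockout replicate 1. Without knockout replicate 4 it was −0.62 (adjusted p = 0.999 from edgeR's test, as it was at or above 0.949 under every alternative tried).

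Of the complex that GATA1 forms on DNA, *Lmo2* was the factor with the steadiest level. *Lmo2* lies on chromosome 2 of GRCm38 from 103957986 to 103981878. It stood at 149.7, 173.2 and 155.8 CPM in wild type replicates 1 to 3 and at 122.7, 138.7, 131.2 and 134.0 CPM in knockout replicates 1 to 4, so no knockout mouse reached the lowest wild type mouse. Wild type mice averaged 159.6 ± 12.2 CPM (SD, n = 3) and knockout mice 131.6 ± 6.71 CPM (SD, n = 4). On log2(CPM + 1) values, an exact permutation test on both sides gave p = 0.0286, the smallest that 35 splits of the 7 mice allow, in 1 of 10 such tests. In edgeR's test *Lmo2* had a log2 fold change of −0.28 (95% interval −0.55 to −0.0050, standard error 0.13; unadjusted p = 0.0463, adjusted p = 0.999). *Lmo2* therefore did not pass the test over all genes. Leaving out each mouse in turn gave log2 fold changes from −0.31 to −0.21 and unadjusted edgeR p-values from 0.0536 to 0.148, so each of the 7 mice was needed for the p under 0.05. A gene on the opposite strand of *Lmo2*, *4931422A03Rik*, had at most 3 reads in a library.

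*Tal1*, which encodes SCL, lies on chromosome 4 of GRCm38 from 115056426 to 115071755. Its level was 37.0, 55.9 and 37.6 CPM in wild type replicates 1 to 3 and 23.3, 24.3, 48.5 and 48.7 CPM in knockout replicates 1 to 4. The knockout mice fell into a lower and a higher pair on either side of 2 of the wild type mice. The log2 fold change was −0.27 (95% interval −0.85 to 0.32, standard error 0.27; adjusted p = 0.999 from edgeR's test), and it was −0.047 without wild type replicate 2. *Lyl1*, the paralog of *Tal1*, lies on chromosome 8 of GRCm38 from 84701457 to 84704715. It stood at 96.5, 91.3 and 72.4 CPM in wild type replicates 1 to 3 and at 55.8, 74.4, 58.3 and 87.2 CPM in knockout replicates 1 to 4, with knockout replicates 1 and 3 below every wild type mouse. Its log2 fold change was −0.33 (95% interval −0.70 to 0.035, standard error 0.18; adjusted p = 0.999 from edgeR's test). *Nfix*, on the opposite strand over *Lyl1*, had 248 to 483 reads per library, and the strand counted is not stated, so reads of this pair are uncertain.

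*Klf1*, the driver of globin and other red cell genes, had the largest coefficient of variation of the 10 factors in both genotypes. It lies on chromosome 8 of GRCm38 from 84901928 to 84905291. It stood at 2.63, 8.10 and 7.42 CPM in wild type replicates 1 to 3 and at 2.52, 10.4, 6.71 and 20.6 CPM in knockout replicates 1 to 4, from 12 to 83 reads. Knockout replicate 1 and wild type replicate 1 were lowest and knockout replicate 4 was highest, so the low values came from both genotypes. The coefficient of variation was 49.3% in wild type and 77.0% in knockout mice, while counting alone would give 20.9% and 14.8%. For *Klf1* the log2 fold change was 0.73 (95% interval −0.59 to 2.05, standard error 0.61; adjusted p = 0.999 from edgeR's test). Without knockout replicate 4 it was 0.12 and without wild type replicate 1 it was 0.36, and its adjusted p was at or above 0.949 under every alternative tried. Of 37 erythroid genes tested, 36 were above their own mean of the 7 mice in knockout replicate 4, 2 were in knockout replicate 1, 6 in wild type replicate 1 and 7 in knockout replicate 3. These 3 mice with few such genes were also the 3 lowest for *Klf1*, while knockout replicate 2, with the second highest *Klf1* level, had 15 of 37. The red cell membrane gene *Slc4a1* (band 3) stood at 7.75 CPM in knockout replicate 1 and 49.96 CPM in knockout replicate 4, and it was at 15.1 CPM in wild type replicate 1 and 59.5 CPM in wild type replicate 2. *Car1*, an erythroid carbonic anhydrase, ran from 3.49 CPM in knockout replicate 1 to 73.1 CPM in knockout replicate 4. *Slc4a1* and *Car1* were picked after their values were seen, and how far the number of erythroid cells set the *Klf1* level was not tested.

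**Figure D2:**
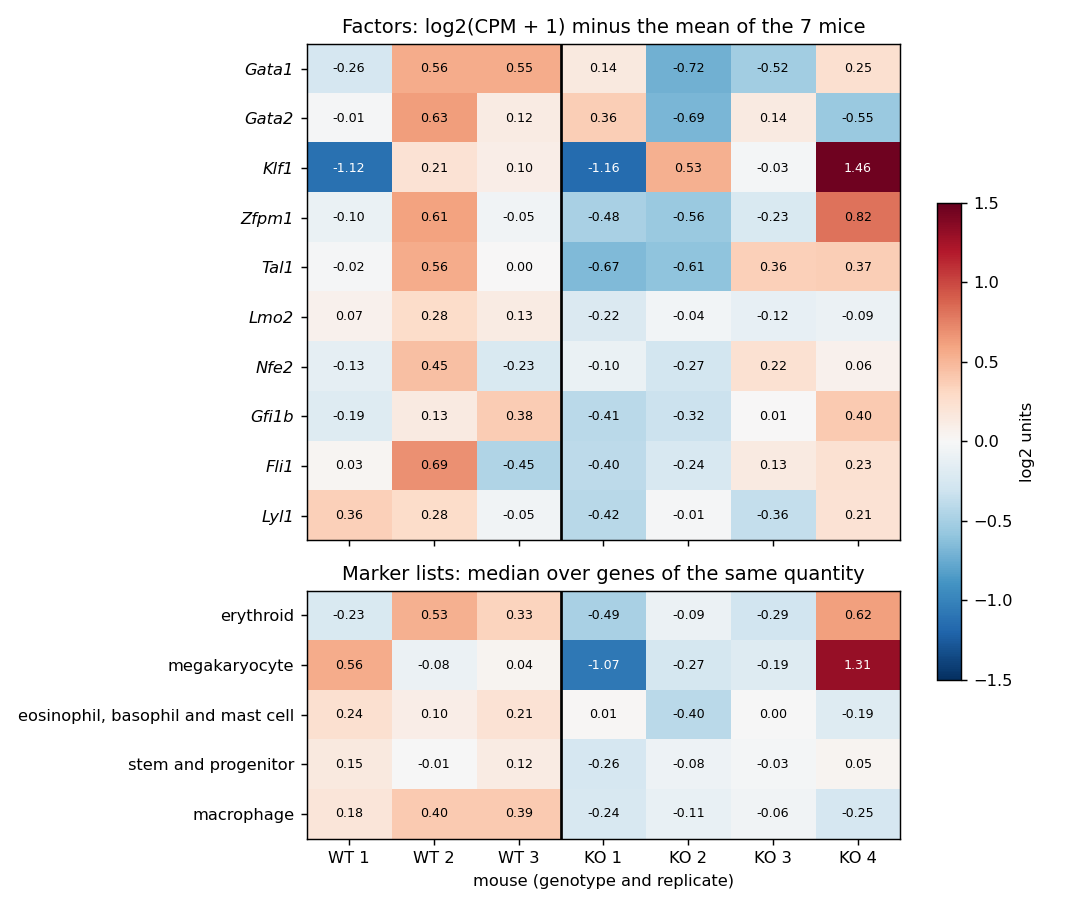
Each cell gives, for a factor (top) and a mouse (columns, wild type left of the line), log2(CPM + 1) minus the mean of the 7 mice, in log2 units on the colour scale. Below are the medians of that quantity over the tested genes of 5 marker lists. Wild type replicate 2 is above the mean for 10 of 10 factors and knockout replicate 2 for 1 of 10, and the erythroid row runs from −0.49 in knockout replicate 1 to 0.62 in knockout replicate 4.

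The factors of late maturation and of the megakaryocyte branch overlapped between the genotypes. *Nfe2* (chromosome 15 of GRCm38, 103248212 to 103258403) stood at 71.6, 107.3 and 66.5 CPM in wild type replicates 1 to 3 and at 73.1, 64.7, 91.7 and 82.0 CPM in knockout replicates 1 to 4, with 3 of the 4 knockout mice inside the wild type range. Its log2 fold change was −0.069 (95% interval −0.45 to 0.31, standard error 0.18), the smallest of the 10 in size, and it was 0.17 without wild type replicate 2 and 0.010 without knockout replicate 2. *Gfi1b* (chromosome 2 of GRCm38, 28609450 to 28621982) stood at 10.7, 13.7 and 16.4 CPM in wild type replicates 1 to 3 and at 9.11, 9.74, 12.5 and 16.7 CPM in knockout replicates 1 to 4, so that each genotype held low and high mice. Its log2 fold change was −0.18 (95% interval −0.80 to 0.44, standard error 0.30), and −0.026 without wild type replicate 3 to −0.38 without knockout replicate 4.

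*Fli1* (chromosome 9 of GRCm38, 32422204 to 32542861), the ETS factor of the megakaryocyte branch, stood at 288.4, 455.5 and 207.0 CPM in wild type replicates 1 to 3. The knockout mice, in the same order, stood at 214.4, 238.2, 310.0 and 332.0 CPM. All 4 knockout mice lay inside the wild type range, whose ends were wild type replicates 3 and 2. The log2 fold change was −0.21 (95% interval −0.75 to 0.33, standard error 0.24), and without wild type replicate 2 it was 0.14. *Nfe2*, *Gfi1b* and *Fli1* all stood at an adjusted p of 0.999 in the edgeR fit.

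**Figure D3:**
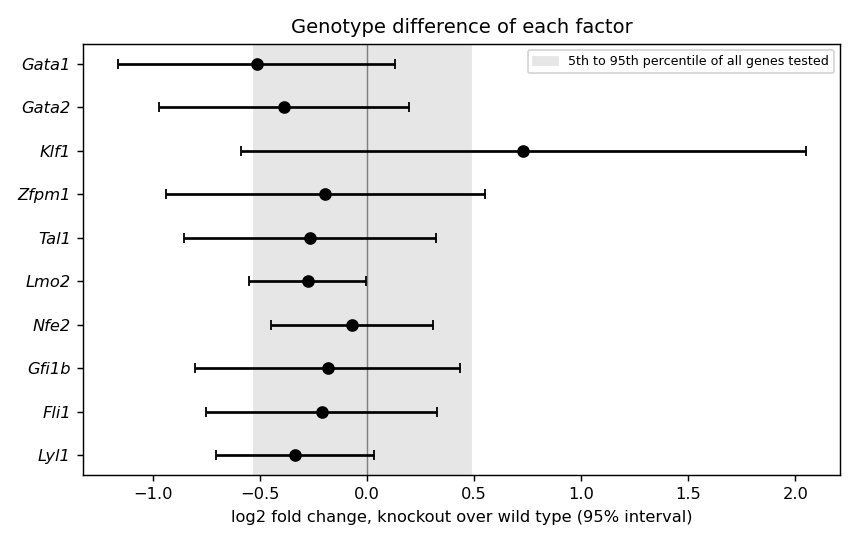
Log2 fold change of each factor (horizontal axis, knockout over wild type) with its 95% interval, over a grey band from the 5th to the 95th percentile of all genes tested (−0.53 to 0.48). The interval of *Lmo2* ends just below 0 and the other 9 intervals include 0.

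The levels also varied from mouse to mouse within a genotype. In wild type replicate 2, 10 of the 10 factors were above their own mean of the 7 mice, with a median deviation of 0.50 on the log2 scale, and in knockout replicate 4, 8 of 10 were, with a median of 0.24. In knockout replicates 1 and 2, 2 and 1 of 10 were, with medians of −0.40 and −0.30. The first pair of mice also had the highest shares of *Rn45s* reads (20.6% and 18.6%), and knockout replicates 1 and 2 the lowest (4.94% and 9.21%). With the *Rn45s* share as a covariate, added after the data had been seen, the median log2 fold change of the factors was −0.13. The members did not move as a block. In knockout replicate 4, *Klf1* was 1.46 and *Zfpm1* 0.82 above its mean while *Gata2* was 0.55 below it, a deviation of −0.55. Without knockout replicate 3, whose sex-linked genes stood apart, edgeR called 0 of 10 factors, with 0 at an unadjusted p under 0.05. In that set 9 were below 0 and the median was −0.27. The single log2 fold changes without it ran from −0.48 for *Gata2* to 0.88 for *Klf1*.

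Ratios of reads within a library, with 1 read added to each gene, do not use the scaling factors, and 3 such ratios were compared. The ratio of *Gata1* to *Gata2*, the pair exchanged in erythroid maturation, was −3.72, −3.51 and −3.00 on the log2 scale in wild type replicates 1 to 3 and −3.68, −3.55, −4.16 and −2.65 in knockout replicates 1 to 4. The knockout mice spanned the wild type values on both sides. The difference, knockout minus wild type, was −0.097 (two-sided exact permutation test, p = 0.83, and 0.83 adjusted over the 3 ratios), and it was 0.11 without wild type replicate 3 and 0.12 without knockout replicate 3. The ratio of *Klf1* to *Fli1*, factors of the erythroid and the megakaryocyte branch, was −6.66, −5.77 and −4.75 in wild type and −6.31, −4.49, −5.49 and −3.99 in knockout replicates in the same order. Its difference was 0.66 (two-sided exact permutation test, p = 0.400, adjusted 0.600), and it was 0.19 without wild type replicate 1, 0.30 without knockout replicate 4, 1.07 without knockout replicate 1 and 1.14 without wild type replicate 3. The ratio of *Gata1* to *Spi1*, which encodes the myeloid factor PU.1, was −3.67, −2.73 and −2.77 in wild type and −3.44, −4.26, −4.04 and −3.27 in knockout replicates. Wild type replicates 2 and 3 lay above all 4 knockout mice and wild type replicate 1 lay among them, with a difference of −0.70 (two-sided exact permutation test, p = 0.171, adjusted 0.514). *Spi1* itself averaged 148.6 ± 4.41 CPM (SD, n = 3) in wild type mice and 166.9 ± 5.71 CPM (SD, n = 4) in knockout mice. The 4 knockout values of *Spi1* lay above the 3 wild type values, where 5.16% of all genes did not overlap in either direction. Its log2 fold change was 0.17 (adjusted p = 0.999 in edgeR).

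**Figure D4:**
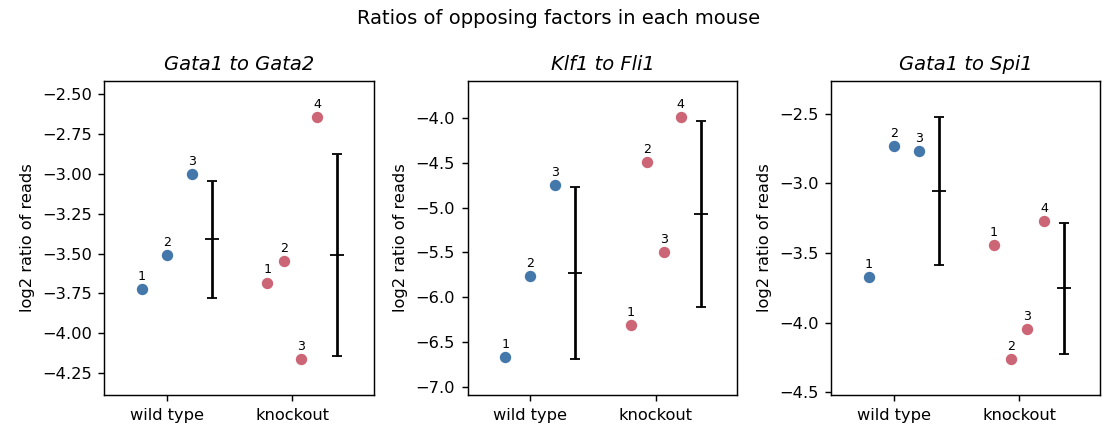
Log2 ratio of reads of 2 factors in each mouse (vertical axes differ between panels and do not start at 0), wild type in blue and knockout in red, with replicate numbers and the mean ± SD in black. The genotypes overlap in all 3 panels, with the smallest exact permutation p at 0.171 for *Gata1* to *Spi1*.

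Among the relatives and partners of the factors, no gene was called. Of 14 paralogs, 8 were tested, 4 lower and 4 higher in knockout cells, with a median log2 fold change of −0.062 and 0 called by edgeR at an adjusted p under 0.25 or at an unadjusted p under 0.05. That median was 0.19 without wild type replicate 2 and −0.21 without knockout replicate 3. *Gata4*, *Gata5*, *Gata6*, *Tal2* and *Lmo3* had 0 reads in every library, and *Nfe2l2*, a factor of the oxidative stress response, had the smallest p of the paralogs, at 52.4 ± 2.21 CPM (SD, n = 3) in wild type mice and 62.5 ± 10.2 CPM (SD, n = 4) in knockout mice. *Gata3*, a factor of T and innate lymphoid cells, was in that order at 30.1 ± 4.31 CPM (SD, n = 3) and 23.3 ± 8.04 CPM (SD, n = 4). Of 31 partners and cofactors, among them *Ldb1*, *Runx1*, *Kdm1a* and *Cbfa2t3*, all 31 were tested and 0 were called or had an unadjusted p under 0.05. Their log2 fold changes ran from −0.21 to 0.37 with a median of −0.018. That median was 0.0096 without wild type replicate 2, 0.011 without wild type replicate 3 and 0.0071 without knockout replicate 3. Of the 31, 1 (*Spi1*) did not overlap between the genotypes, where 5.16% of all genes did not. *Runx1*, a factor of stem cells and megakaryocytes, had the smallest p of these, averaging 136.3 ± 15.1 CPM (SD, n = 3) in wild type mice and 118.4 ± 12.7 CPM (SD, n = 4) in knockout mice. This is a log2 fold change of −0.20 for *Runx1* (standard error 0.14).

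The marker genes of the erythroid and megakaryocyte branches gave no call either. Of 37 erythroid genes tested, 26 were lower and 11 higher in knockout cells, with a median log2 fold change of −0.27 and 0 called, and *Kel* and *Cpox* were under 0.05 by unadjusted p, where 2.07% of all genes were so and lower. *Kel*, a red cell blood group protein, was at 15.1 ± 4.71 CPM (SD, n = 3) and 8.30 ± 5.22 CPM (SD, n = 4), and *Cpox*, an enzyme of heme synthesis, at 124.2 ± 33.5 CPM (SD, n = 3) and 93.3 ± 20.3 CPM (SD, n = 4), wild type first in each. The erythroid median ran from −0.58 without knockout replicate 4 to −0.032 without wild type replicate 2, and it was −0.50 without wild type replicate 1 and −0.11 without knockout replicate 1. Of 17 megakaryocyte genes tested, 9 were lower and 8 higher, with a median of −0.032. That median was −0.81 without knockout replicate 4 and 0.33 without wild type replicate 1 or without knockout replicate 1, so its direction rested on single mice. Of these genes 0 were called or had an unadjusted p under 0.05. The sum of the whole list of 22 was 508.9 to 687.4 CPM in wild type mice, 335.4 to 431.8 CPM in knockout replicates 1 to 3 and 1345 CPM in knockout replicate 4. *Pf4* (platelet factor 4) was the top gene of that list and stood at 570.9 CPM in knockout replicate 4.

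Genes of other cells in which *Gata1* and *Gata2* are used, or that can stay in a lin- preparation, are given for their levels beside those of the factors, and edgeR called 0 of them at an adjusted p under 0.25. These lists were chosen with earlier results of these data known, so the counts and shares below describe the lists and do not test them. At an unadjusted p under 0.05 there were 5 eosinophil, basophil and mast cell genes, 5 macrophage genes, 3 lymphoid genes, 1 stem and progenitor gene, 1 endothelial gene and 0 neutrophil genes, all of them lower, where 2.07% of all genes were lower at that p. Of 16 eosinophil, basophil and mast cell genes tested, 14 were lower in knockout cells and 5 did not overlap, each of them lower, where 2.79% of all genes were lower without overlap. *Slc18a2*, a monoamine transporter of mast cells and basophils, was at 55.9 ± 7.71 CPM (SD, n = 3) and 33.0 ± 3.25 CPM (SD, n = 4), with an adjusted p of 0.544 from edgeR's test. *Prg3*, an eosinophil granule protein, was at 30.4 ± 5.06 CPM (SD, n = 3) and 16.2 ± 4.86 CPM (SD, n = 4), and *Prg2*, its relative, at 1185 ± 94.9 CPM (SD, n = 3) and 910.4 ± 29.4 CPM (SD, n = 4). The summed level of the whole list of 20 ran from 4692 to 5086 CPM in wild type and from 3254 to 4504 CPM in knockout mice, with *Tpsb2* and *Tpsab1* at or near 0. Of 10 macrophage genes, 6 were lower without overlap, and the sum of the 10 was 453.4 to 473.7 CPM in wild type and 331.5 to 403.2 CPM in knockout mice. *C1qc*, a complement gene of macrophages, had the smallest p of that list, at 34.3 ± 2.55 CPM (SD, n = 3) and 17.2 ± 1.121 CPM (SD, n = 4), with an adjusted p of 0.322 in edgeR. Of 11 stem and progenitor genes tested, 8 were lower and 3 higher, with a median of −0.14 that was −0.020 without knockout replicate 1, and sums of 643.0 to 788.7 CPM against 573.6 to 713.9 CPM. *Slamf1* and *Fgd5* of that list, which the filter left out, were near the floor. *Slamf1* was at 1.96 to 2.12 CPM in wild type and 0.373 to 1.24 CPM in knockout mice. *Fgd5* was at 1.09 to 3.07 CPM and 0 to 0.373 CPM in that order. Of 8 endothelial genes tested, 6 were lower, 2 of them without overlap, and 2 were higher, with a median of −0.20 that ran from −0.33 without wild type replicate 2 to −0.079 without wild type replicate 1, sums of 212.6 to 271.1 CPM against 189.3 to 252.3 CPM, and *Cldn5* at 0 reads. Of 15 neutrophil genes, 12 were higher, with a median of 0.52 that was 0.16 without knockout replicate 3. Of 12 lymphoid genes 7 were lower, 2 of them without overlap, with a median of −0.086 that was 0.079 without knockout replicate 3 and −0.57 without knockout replicate 4. The part of these cells in the levels of the 10 factors was not tested.

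**Figure D5:**
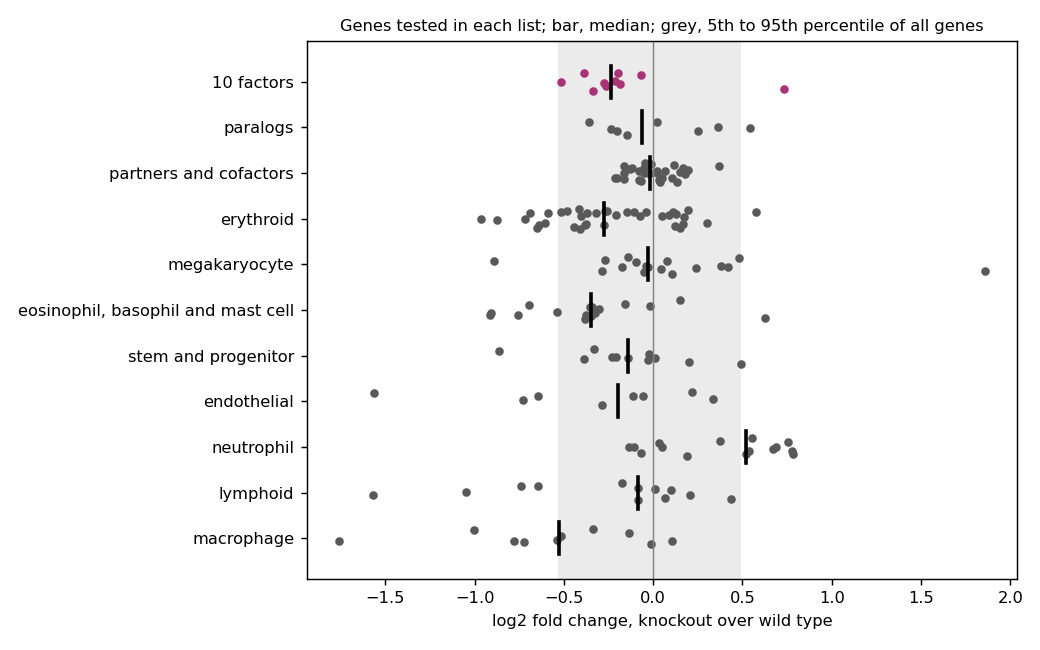
Log2 fold change (horizontal axis, knockout over wild type) of every tested gene in the 10 factors (purple) and in 10 other lists (dark grey), with a black bar at each median and a grey band for the 5th to 95th percentile of all genes tested. Of the 10 factors, 9 lie left of 0 and *Klf1* lies at 0.73, while the partners and cofactors sit around a median of −0.018.

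Genes with the pattern most like a factor over the 7 mice were sought by the smallest root mean square difference between log2(CPM + 1) values, each centred on its mean. For *Klf1* the nearest gene was *Smim1*, a red cell membrane protein, with a difference of 0.16 on the log2 scale, followed by *Cplx2* (0.37) and *Prkar1b* (0.39). *Smim1* stood at 0.657, 3.35 and 1.86 CPM in wild type replicates 1 to 3 and at 0.582, 3.94, 2.42 and 7.46 CPM in knockout replicates 1 to 4, so the lowest values are at the floor of 3 reads. For *Gata1* the nearest genes were *Crocc* (0.14), *A930005H10Rik* (0.14) and *Dmxl1* (0.16), and for *Gata2* they were *Sec22c* (0.060), *Nabp1* (0.11) and *Lpxn* (0.12). *Zfpm1*, picked after its values were seen, was nearest to *Blvrb* (0.15), *Abcg2* (0.17) and *Tfdp2* (0.18), and *Blvrb*, which encodes an erythroid biliverdin reductase, is in the erythroid list. The factors were not each other's nearest genes. The closest pair among them was *Nfe2* and *Fli1* (0.19), and among the genes nearest to *Fli1*, *Nfe2* had rank 97. With 7 mice and 11265 genes, near patterns of this size are a description only.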

How the data were processed

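RNA of lin- bone marrow cells of 3 *HRP-2* wild type and 4 knockout mice was sequenced as single reads of 3′ end libraries. The authors aligned the reads to GRCm38 with STAR, per the paper's methods, and deposited whole read counts per gene symbol, not normalized. Of the reads in a library, 27.0% to 31.6% fell on no gene and 1.99% to 2.40% were ambiguous, and these tallies were left out. The strand counted is not given in the sources used here.

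Counts were scaled with TMM factors, filtered with filterByExpr and tested with edgeR 4.0.16 (quasi-likelihood, robust, Benjamini-Hochberg adjustment over 11265 genes) in R 4.3.3. CPM used the TMM factors. An adjusted p under 0.25, the threshold of the paper, counted as called, and 0.05 gave the same 2 genes. Standard errors are the log2 fold change divided by the square root of F. Single values were compared with exact permutation tests. DESeq2 1.42.0 and limma-voom 3.58.1 were alternatives. The edgeR step was tested on simulated data.

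Libraries within a genotype differed beyond sampling noise in each pairing. The members, lists and ratios were chosen with earlier results of these data known. Named genes were the 10 members, up to 4 genes with the smallest p of each other list, genes heading a summed level, library checks, and the 3 genes nearest in pattern to *Gata1*, *Gata2* and *Klf1*. Other names, among them *Cpa3*, *Mcpt8*, *Slc4a1*, *Car1*, the genes nearest to *Zfpm1*, and genes given as examples of a list or at 0 reads, were chosen after their values were seen. Gene positions came from GENCODE M21 (GRCm38), which held 97.6% of the symbols.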

Additional observations from a re-analysis of the deposited data

Results flagged for a closer look

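In a search of 24 values for 1 knockout mouse apart from the other 3, 2 stood out by the ratio of the gap to the range, where chance gives about 1 in 20, or 1.2. *Zfpm1* was at 68.3 CPM in knockout replicate 4, against 25.7 to 32.4 CPM in the other knockout mice. The sum of the megakaryocyte list was 1345 CPM in the same mouse, against 335.4 to 431.8 CPM in the others.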

How the results depend on the processing

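No factor of the 10 was called under any of 16 alternatives, 15 planned and 1 added after the data were seen, and 7 of the 10 kept the direction of their log2 fold change in all of them. Without wild type replicate 2 that of *Zfpm1* was 0.075, of *Nfe2* 0.17 and of *Fli1* 0.14. *Nfe2* was also at 0.010 without knockout replicate 2 and at 0.048 with the *Rn45s* share as a covariate. With 1 mouse left out, *Zfpm1* ran from −0.62 to 0.075, *Nfe2* from −0.20 to 0.17 and *Fli1* from −0.44 to 0.14. The others kept their sign with sizes that moved, as for *Tal1* (−0.45 to −0.047) and *Gfi1b* (−0.38 to −0.026). The endothelial median was −0.46 without the filter on low counts and the paralog median 0.080 with the covariate. The causes were not tested. The median of the factors lay between −0.35 and −0.10. From 0 to 2 factors had an unadjusted p under 0.05. *Lmo2* lost it without any 1 mouse, with the replicate block, with other or no scaling factors, without the low-count filter and with the covariate, while its log2 fold change stayed between −0.31 and −0.21. Over all genes, 2 were called, against 41 without the filter on low counts, 21 with DESeq2, 1 with at least 10 reads in every mouse, 8 with the covariate and 2 to 7 with 1 mouse left out. With a replicate block in the fit, 1 gene was called, knockout replicate 4 added nothing to the genotype difference, *Klf1* was at 0.065 the factors' median at −0.33, the erythroid median at −0.64 and the megakaryocyte median at −0.87. Correlations of deviations between mice of the same number were −0.025, −0.21 and −0.16. No other pairs were compared with them, so these values do not settle whether the numbers pair the mice. With 1 mouse left out, the differences in the log2 ratios ran from −0.38 to 0.12 for *Gata1* to *Gata2*, 0.19 to 1.14 for *Klf1* to *Fli1* and −1.0 to −0.53 for *Gata1* to *Spi1*, values without a test, since no exact test on 6 mice can pass 0.05 here. Depth limits the low genes, with as few as 12 *Klf1* reads in a library and *Prkar1b* at 0 CPM in knockout replicate 1.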
